A study of Pseudotsuga menziesii with 10 samples.

Results

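A small set of Douglas-fir transcripts stood at moderate levels in the megagametophyte on every sampled date and was nearly absent from cone tissue. The megagametophyte is the haploid female gametophyte of a conifer seed, which bears the egg cells and later stores the reserves that feed the embryo. Unlike the endosperm of flowering plants it forms before fertilization. In this series it was collected from cones with and without pollen. Genes transcribed there can be seen in a haploid tissue beside the diploid sporophyte tissue of the same tree.

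The members were chosen by their measured levels. A contig (an assembled transcript) was included when it reached 10 FPKM (a fragment count scaled for contig length and for library size) in all 8 megagametophyte libraries and stayed under 1 FPKM in both cone scales and cone bracts. This rule selected 85 of 54889 contigs in the table. The contrast between megagametophyte and cone tissue is therefore a description with no test. The identifiers are not paired with gene names or sequences in the sources used here, so contigs are given by identifier, no function is stated, and the labelled tissue could not be checked against marker genes.

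Pseudotsuga menziesii seed cones of clone 970 were bagged before pollen shed in 2011, and either received a pollen mix from 6 genotypes on 9 May or received none. Pools of 200 to 400 megagametophytes per library were dissected from pollinated and from unpollinated cones on 10, 22 and 30 June and 6 July, giving 1 library for each of the 8 combinations. Per the labels, the stages were in turn corrosion cavity formation, fertilization, embryogenesis and, without pollen, early abortion. Scales and bracts of the same clone, taken on 26 May, gave 1 library each. The labels describe the pollinated pools as megagametophyte with embryo, so RNA of the embryo cannot be told apart from that of the gametophyte there. Cone tissue and its earlier collection date cannot be told apart either. In pooled tissue, fewer cells of a kind and less RNA per cell cannot be told apart.

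No group had a second library, and all came from a single clone, so the tests below measure departures from a line over dates or variation of the pollination difference between dates. Contigs at 10 FPKM or more numbered 8468 to 8815 per library. Read depth is not known from the table, and no counting intervals are given.

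The 85 contigs were of moderate abundance. Their geometric mean over the 8 megagametophyte libraries ranged from 14.9 to 164 FPKM with a median of 29.4 FPKM, and 68 of 85 lay under 50 FPKM. The median over the contigs stayed between 26.7 FPKM (pollinated, 30 June) and 35.8 FPKM (pollinated, 22 June). None of them reached 100 FPKM in all 8 libraries, and 18 reached it in at least 1. Together they made up 0.689% to 0.895% of summed FPKM in the megagametophyte libraries, against 0.00811% in scales and 0.00521% in bracts.

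**Figure D1:**
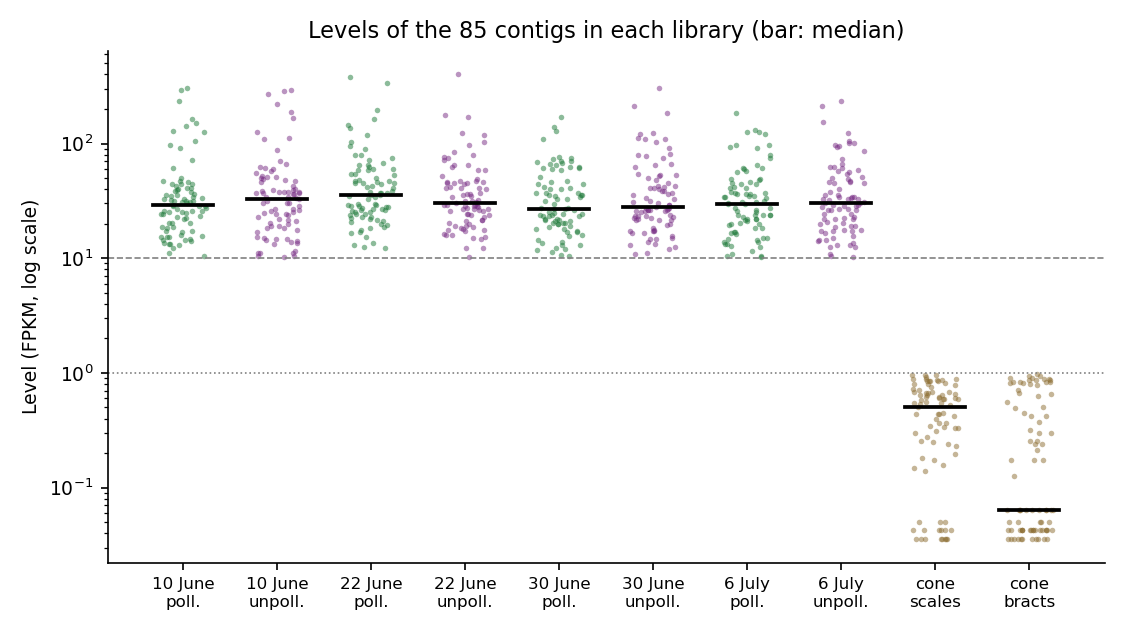
Level of each of the 85 contigs (points, FPKM on a log axis) in each of 10 libraries, with the median as a bar and dashed and dotted lines at the selection limits of 10 and 1 FPKM. Megagametophyte medians sit between 26.7 and 35.8 FPKM, and the cone medians are 0.505 (scales) and 0.0644 (bracts).

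In cone tissue the levels spread over the whole span that the rule allowed. The scales median of 0.505 FPKM lay above the bracts median of 0.0644. Scales held the higher value for 51 contigs and bracts for 33. At or under 0.0718 FPKM, near the bottom of the table, were 17 contigs in scales, 44 in bracts and 14 in both. More than 0.5 FPKM in at least 1 cone tissue was seen for 52 contigs. For each contig the lowest megagametophyte level was at least 12.4 times the highest cone level, and the median of this ratio was 35.9.

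The limits cut through a continuous range. Just inside the 10 FPKM limit, GAZW02034226 had its lowest megagametophyte level at 10.2 FPKM and GAZW02061924 at 10.3 FPKM. Just outside, GAZW02054477 and GAZW02067333 had their lowest level at 9.93 FPKM. Just inside the cone limit, GAZW02078851 had 0.959 FPKM in scales and 0.986 in bracts, and GAZW02006953 had 0.959 and 0.866 FPKM. Just outside, GAZW02014084 stood at 1 FPKM in scales and GAZW02038398 at 1 FPKM in bracts. A further 35 contigs met the cone limit and reached 10 FPKM in 7 of the 8 megagametophyte libraries. In all, 848 contigs met the cone limit and averaged at least 10 FPKM across these libraries.

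The most abundant contig by mean level was GAZW02020440. With pollen its levels were 303, 334, 171 and 132 FPKM from the first to the last date. Without pollen they were 49.2, 64.8, 308 and 233 FPKM. Pollinated libraries held the higher level in June until the 22nd, and unpollinated libraries held it afterwards. The next, GAZW02053827, stood at 236, 197, 110 and 75.1 FPKM with pollen and at 289, 178, 214 and 104 FPKM without. Its lowest level in both states was on 6 July.

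Presence on every date did not mean a constant level. The ratio of the highest to the lowest of the 8 FPKM values had a median of 3.14 and ran from 1.57 to 31.4. On the log2(FPKM + 1) scale the median range was 1.58 log2 units, beside 1.04 for the 4921 other contigs that met the same floor of 10 FPKM on all dates and in both states. A range under 1 log2 unit was seen for 10 of 85 contigs (11.8%) and for 46.1% of the others. A range of 2 or more was seen for 23 (27.1%) and for 11% of the others. Most of the others, 4003 of 4921, also stood at 10 FPKM or more in both cone tissues. Among those 4003, 49.1% had a range under 1 and 8.84% a range of 2 or more. Wide ranges were thus more common in the rest of the others, which were not set against the 85 separately. The same 4921 contigs serve as the others in every comparison below. The 85 and the 4921 had similar median levels, at 4.93 and 5.08 on the log2(FPKM + 1) scale. No test of the difference in range was made, and the floor of 10 FPKM keeps contigs with a deep dip out of both sets.

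**Figure D2:**
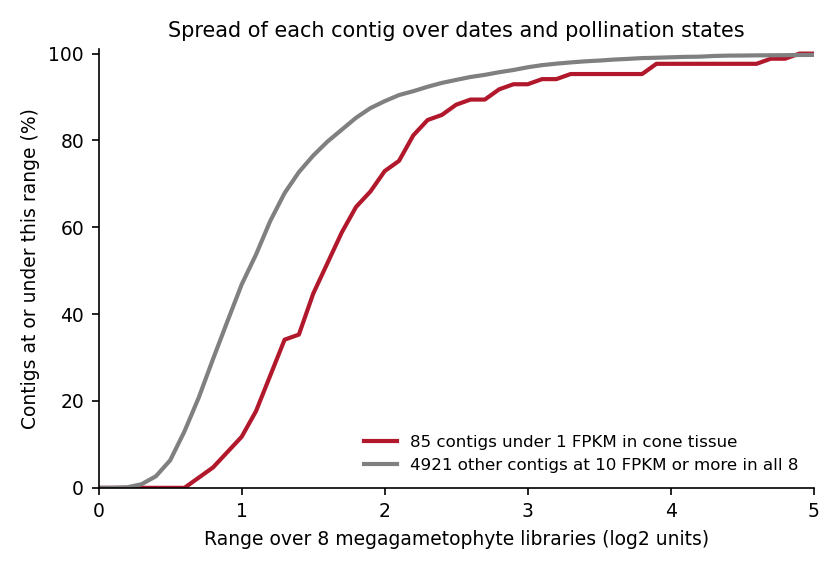
Share of contigs (percent) at or under a given range over the 8 megagametophyte libraries (highest minus lowest log2(FPKM + 1) value) for the 85 contigs and for 4921 other contigs with the same floor. At 1 log2 unit the curves stand at 11.8% and 46.8%, and the medians are 1.58 and 1.04.

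The steadiest contig, GAZW02092004, stood at 32.6, 44.9, 35.8 and 29.7 FPKM with pollen and at 31.7, 30.6, 33.5 and 28.7 FPKM without from the first to the last date. Its highest value was 1.57 times its lowest. The second steadiest, GAZW02028761, stood at 40.1, 47.5, 60.4 and 47.8 FPKM with pollen and at 38.4, 41.2, 62.1 and 46.2 FPKM without. Although its range was only 0.68 log2 units, 30 June was the highest date in both states. It passed the test of date as a factor (limma adjusted p 0.0432), while GAZW02092004 did not (adjusted p 0.426).

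Whether levels trended over the 26 days from the first to the last date was tested with a straight line and pollination state as a term. In limma, 18 contigs rose and 18 fell, 36 of 85 (42.4%). The background was 32.7% of 27065 contigs tested, 16.3% upward and 16.4% downward, and 34.8% among the 4921 others with the same floor. Among those others 23.8% passed upward and 11.1% downward, whereas the 85 divided evenly. This contrast in direction was not tested, and the even split did not hold in every setting. It stayed at 18 and 18 with a pseudocount of 0.1 or 5 FPKM. With no filter on low values it was 15 rises and 10 falls, and without the unpollinated library of 10 June 10 rises and 4 falls. The fitted rises were 0.85 to 2.59 log2 units (median 1.64) and the falls were -0.77 to -4.47 (median -1.28). Of the 36 changes, 15 rises and 14 falls were 2-fold or more. Over all 85, slopes fitted to each state alone had the same sign for 77 (90.6%), beside 85.1% of the others.

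The largest fitted rise was that of GAZW02063454, which stood at 28.2, 25.4, 129 and 185 FPKM with pollen and at 37.6, 34.8, 120 and 154 FPKM without. The levels of 10 and 22 June were low and those of the later dates high, with no overlap. The change over 26 days was 2.59 ± 0.55 log2 units (SE, limma adjusted p 0.00988). GAZW02034597 climbed in both states, going from 15.6 through 26.7 and 41.8 to 59.5 FPKM with pollen and from 11.1 through 21.5 and 45.5 to 96.7 FPKM without. Its change was 2.41 ± 0.30 log2 units (limma adjusted p 0.00145).

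The largest fitted fall was that of GAZW02081913. It stood at 291, 118, 21.9 and 10.3 FPKM with pollen and at 270, 37.3, 29.3 and 13.1 FPKM without, so it ended near the selection limit, with the second widest range of all at 4.69 log2 units. The change was -4.47 ± 0.42 log2 units (limma adjusted p 0.00102). GAZW02064379 stood at 128, 144, 10.6 and 26.3 FPKM with pollen and at 168, 96.7, 12.1 and 17.3 FPKM without. Its drop lay mostly between 22 and 30 June, and the fitted line gave -3.45 ± 0.83 log2 units (limma adjusted p 0.0160).

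In the line test, the pollinated and unpollinated libraries of a date count as independent. Of the 10 June libraries, leaving out the pollinated one took the count of 36 to 18, and leaving out the unpollinated one took it to 14. It went to 3 when both libraries of a date were averaged. The pollinated libraries alone gave 0 and the unpollinated ones 4. The fall of GAZW02064379 missed the threshold without the unpollinated library of 10 June (limma adjusted p 0.0742), without that date (0.130) and without 6 July (0.0574). It also missed it on date means (0.0964), in pollinated (0.193) or unpollinated libraries alone (0.0600) and with no filter on low values (0.0507). Its estimate was -4.82 log2 units without 10 June and -4.35 without 6 July. The rise of GAZW02063454 missed the threshold without 6 July (limma adjusted p 0.115), on date means (0.0815) and in pollinated (0.0996) or unpollinated libraries alone (0.105).

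**Figure D3:**
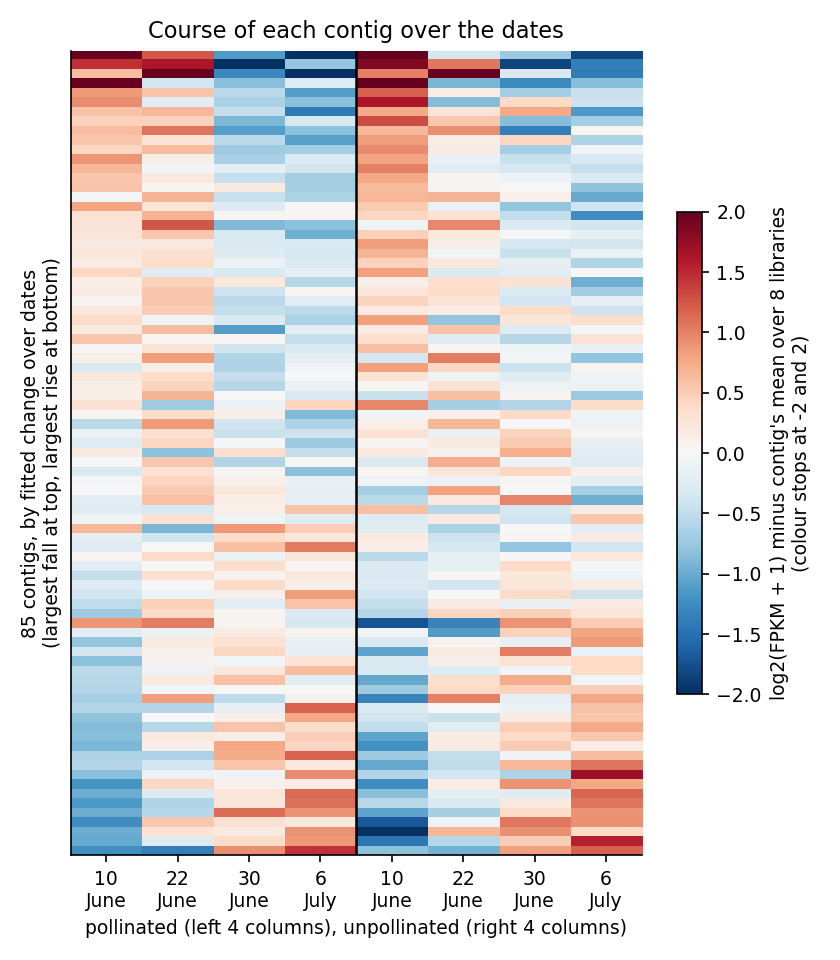
Level of each of the 85 contigs in the 8 megagametophyte libraries, as log2(FPKM + 1) minus the contig's own mean (colour, in log2 units), with rows ordered by the fitted change over 26 days. The largest fall lies at the top and the largest rise at the bottom, whether or not a contig passed the line test. Among the 18 falls and 18 rises that passed, averages over both states were highest on 10 June for 17 falls and on 6 July for 15 rises.

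With date as a 4-level factor, which also finds peaks and dips, 53 of 85 contigs passed in limma (62.4%). The background was 41.1% of all contigs tested and 51.9% of the others with the same floor. Both date tests were passed by 33 contigs, the factor alone by 20, the line alone by 3 and neither by 29. The 29 had ranges of 0.63 to 2.74 log2 units, so a missed threshold there does not show a constant level. The factor count was 31 without the pollinated library of 6 July, 26 without the unpollinated one of that date and 24 when the unpollinated one of 10 June was left out.

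Averaged over both states, the highest level was that of 10 June for 23 contigs, of 22 June for 26, of 30 June for 14 and of 6 July for 22. Among the 4921 others the shares were 22.3%, 11.9%, 38.1% and 27.7%. The 85 contigs thus peaked on 22 June in 30.6% and on 30 June in 16.5% of cases. This difference between the sets was not tested. Of the 26 contigs highest on 22 June, 13 passed the factor test without passing the line test. The date of the highest level was the same in both states for 47 of 85 contigs (55.3%), beside 67.5% of the others. That date was 10 June for 14 contigs, 22 June for 14, 30 June for 7 and 6 July for 12.

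GAZW02022642 had the tallest peak on 22 June. It stood at 142, 376, 37.3 and 12.8 FPKM with pollen and at 186, 404, 75.1 and 34.3 FPKM without. This was the widest range of all 85 contigs, at 4.87 log2 units, and 22 June was highest in both states. It passed the factor test (limma adjusted p 0.00223) and missed the line test (adjusted p 0.0544). Relative to the mean of its other dates, GAZW02064379, described above, had the second tallest excess on 22 June and the deepest dip on 30 June. From 10 to 22 June it went from 128 to 144 FPKM with pollen but from 168 to 96.7 FPKM without, so 22 June was not its highest date in both states. GAZW02017965 had the next deepest dip on 30 June, with 46.8, 64.3, 13.5 and 16.6 FPKM with pollen and 48.2, 58.3, 11.1 and 31 FPKM without. Its factor test gave a limma adjusted p of 0.00806.

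GAZW02063454 had the lowest 22 June level relative to its other dates, and by the same measure the highest 30 June level. Second on 30 June was GAZW02026792, at 14.5, 19.5, 65.3 and 56.3 FPKM with pollen and 13.7, 18.3, 38.4 and 56.3 FPKM without. On 30 June its pollinated level lay above that of 6 July and its unpollinated level below, with 1 library per point. It passed the factor test, which is of date (limma adjusted p 0.00433). The limma test of a pollination difference that changes along the dates gave it an adjusted p of 0.970. GAZW02077393 was second lowest on 22 June, at 40.9, 13, 47.2 and 36.3 FPKM with pollen and 21.3, 16.0, 25.2 and 21.8 FPKM without. Its limma adjusted p in the factor test was 0.0802.

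Steps between neighbouring dates were taken from the same model, a choice made after the data were seen. Between 10 and 22 June 14 contigs rose and 8 fell, against backgrounds of 7.49% and 11.5% of all contigs tested. Among the others with the same floor the shares were 16% and 8.88%, so the 25.9% of the 85 called in either direction stood near the 24.9% of the others. Between 22 and 30 June 3 rose and 6 fell, against 3.62% and 5.3% of all contigs tested and 4.9% and 2.89% of the others. Between 30 June and 6 July limma called 0, against backgrounds of 1.28% and 0.466%, and 1.2% and 1.24% of the others. An unadjusted limma p under 0.05 for this step was seen for 22 of the 85, beside 1478 of the 4921 others. The median change of the 85 contigs was 0.25, -0.10 and 0.01 log2 units over these steps, and that of the others 0.17, 0.19 and -0.11.

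These step counts changed when single libraries were left out, including libraries of dates outside the step. Each such fit also had fewer residual degrees of freedom, and the cause of the changes was not tested. The 22 calls of the first step went to 0 when the unpollinated library of 10 or of 22 June was left out, to 5 without either library of 6 July, and to 8 to 13 without any 1 of the others. The 9 calls of the second step went to 1 without the pollinated library of 22 June or that of 30 June, to 4 without either library of 6 July and to 5 without the unpollinated one of 30 June.

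**Figure D4:**
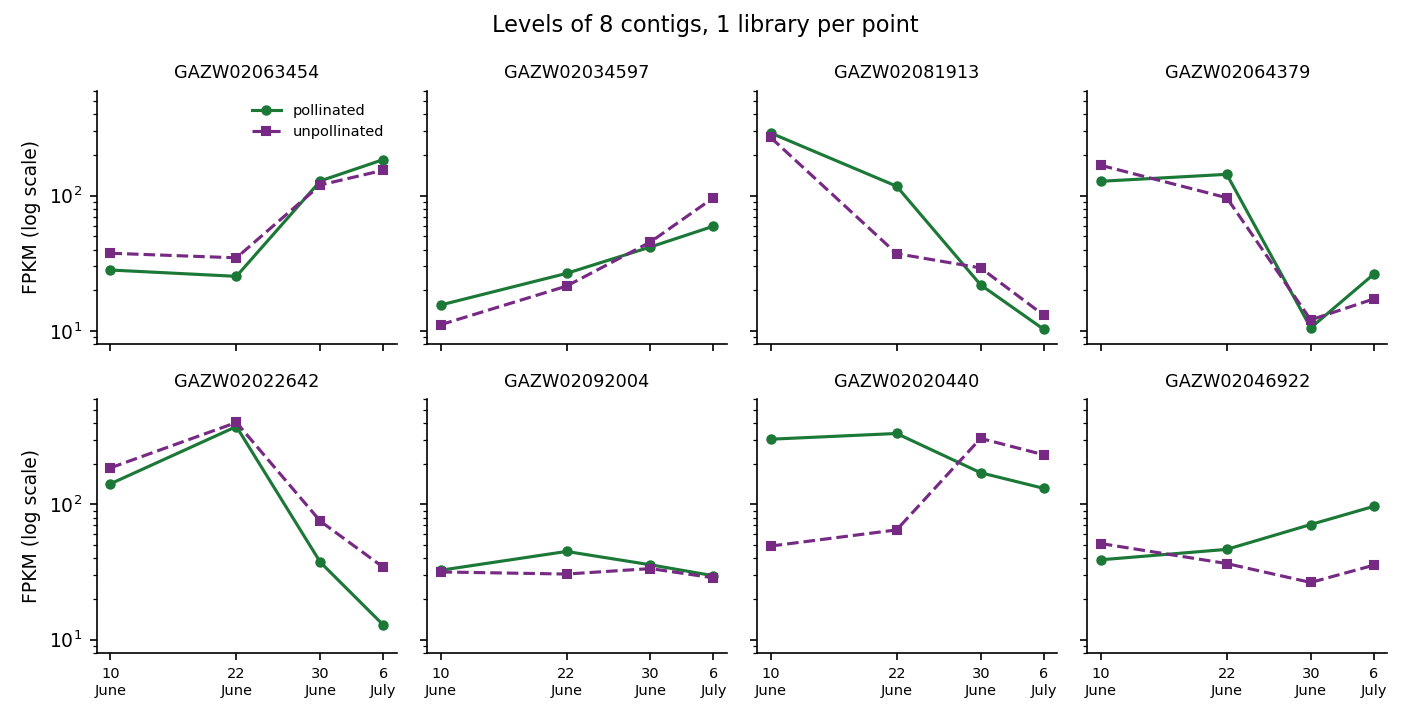
Levels of 8 of the contigs (FPKM, log axis) by date, with pollinated libraries as circles and unpollinated ones as squares, 1 library per point. The panels show 2 rises, 2 falls, the 22 June peak of GAZW02022642, the steady GAZW02092004, and GAZW02020440 and GAZW02046922, whose states change places.

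Pollination state was compared within dates. With date as a block, limma called 0 of 85 contigs, and 3 had an unadjusted p under 0.05. The background was 0.00369% called, 1 contig of 27065, and 4.81% at the unadjusted threshold. The mean differences over the 4 dates ranged from -0.71 to 0.82 log2 units with a median size of 0.17, and their SE had a median of 0.18. For 77 contigs the 95% interval, not adjusted for the number of contigs, lay within 1 log2 unit of 0 in both directions, and for 8 it reached further. For those 8 a lasting 2-fold difference in at least 1 direction lay inside the interval.

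Of the contigs with the smallest p on the pollinated side, GAZW02078851 stood at 40.9, 28, 19.3 and 23.8 FPKM with pollen and at 34.0, 21.2, 13 and 17.5 FPKM without. It was higher with pollen on 4 of 4 dates, by 0.40 ± 0.10 log2 units (SE, limma adjusted p 0.861), and did not pass. GAZW02077393, whose values are given above, differed by 0.56 ± 0.23 log2 units and was higher with pollen on 3 of 4 dates (limma adjusted p 0.861). On the other side, GAZW02022642 was lower with pollen on 4 of 4 dates, by -0.71 ± 0.22 log2 units (limma adjusted p 0.861). GAZW02031328 stood at 126, 62.6, 139 and 79.4 FPKM with pollen and at 127, 118, 185 and 96.0 FPKM without, a difference of -0.40 ± 0.16 log2 units (limma adjusted p 0.861). Over all 85, only 2 contigs were higher with pollen and 5 lower on every date, 2.35% and 5.88%, beside 6.02% and 9.53% of the others.

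At single dates the side that was higher shifted. Pollinated megagametophytes were higher for 35, 60, 30 and 38 of 85 contigs from the first to the last date. The median differences were -0.13, 0.15, -0.14 and -0.03 log2 units. Among the others the pollinated library was higher for 43.8%, 52.4%, 45.9% and 44.3%, with medians of -0.03, 0.02, -0.03 and -0.04. The median size of the difference on a date was 0.27 to 0.41 log2 units for the 85 and 0.14 to 0.20 for the others. Each date holds a single pair of libraries, so these values compare libraries and have no replicate check.

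**Figure D5:**
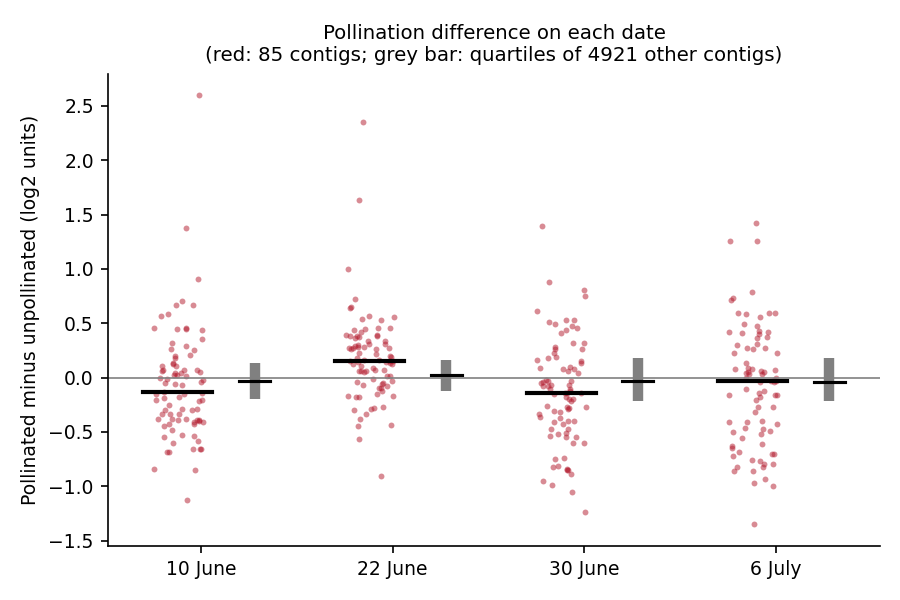
Pollinated minus unpollinated level (log2 units) on each date for the 85 contigs (points, median as a bar) and, as a grey bar with its median, the quartiles of 4921 other contigs with the same floor. The medians of the 85 are -0.13, 0.15, -0.14 and -0.03, and the highest points on 10 and 22 June are GAZW02020440.

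Differences of 2-fold or more were counted on each date. On 10 June 2 contigs were higher with pollen and 1 without, against backgrounds of 4.42% and 3.14% of all contigs whose higher value was at 10 FPKM or more. On 22 June the counts were 3 and 0 against 5.75% and 1.96%, on 30 June 1 and 3 against 5.63% and 5.45%, and on 6 July 3 and 3 against 5.06% and 4.67%. The shares of the 85 were 0% to 3.53%, each below that of all contigs for its date and direction. In the others with the same floor, 0.345% to 1.32% of contigs passed in each direction on each date. In all, 13 of 85 contigs (15.3%) were 2-fold apart on at least 1 date, beside 5.22% of these others. A 1.5-fold difference on at least 1 date was seen for 54 of 85 (63.5%), beside 23.4% of the others. With pollen higher by 1.5-fold, the counts from the first to the last date were 8, 7, 5 and 10 of 85, against 3.98%, 2.56%, 5.75% and 5.77% of the others. Without pollen higher, they were 10, 2, 14 and 19 of 85, against 2.66%, 1.65%, 6.14% and 3.96%. The largest of these counts, 19 of 85 (22.4%), was that of 6 July. These shares were not tested. No share over all contigs is given for the 1.5-fold counts or for the counts over any date. How far the 85 stand out therefore depends on the background chosen.

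GAZW02020440 held the largest single gap, 6.17-fold higher with pollen on 10 June and 5.16-fold on 22 June. On the later dates its ratio of pollinated to unpollinated was 0.557 and 0.565. GAZW02081913 was 3.15-fold higher with pollen on 22 June, with ratios of 1.08, 0.750 and 0.786 on the other dates. In the other direction, GAZW02022642 had a ratio of 0.375 on 6 July, and GAZW02027851 a ratio of 0.418 on 30 June, where it stood at 46.2 FPKM with pollen and 110 FPKM without.

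A pollination difference that changes along a line over the dates was tested with date as a block. Limma called 0 of 85 contigs, against a background of 0%. An unadjusted p under 0.05 was seen for 12 of the 85, against 5.98% of all contigs tested and 198 of the 4921 others with the same floor. With 2 residual degrees of freedom, the 0 calls do not show that the courses were alike. The smallest p was that of GAZW02046922. It stood at 38.9, 46.5, 71.0 and 96.7 FPKM with pollen and at 51.3, 36.5, 26.5 and 35.5 FPKM without. The pollinated level was the lower one on 10 June, and it was 2.68-fold higher on 30 June and 2.72-fold higher on 6 July. The course differed by 1.97 ± 0.32 log2 units over 26 days (limma adjusted p 0.689).

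The next contigs named in this test also did not pass. GAZW02086974 stood at 162, 162, 62.6 and 94.0 FPKM with pollen and at 293, 171, 64.8 and 73.0 FPKM without, a difference in course of 1.12 ± 0.26 log2 units (limma adjusted p 0.734). GAZW02006953 stood at 22.1, 64.3, 24.5 and 37.6 FPKM with pollen and at 13.5, 72.5, 30.8 and 61.7 FPKM without, a difference of -1.31 ± 0.28 (limma adjusted p 0.689). GAZW02020440 had the largest difference in course, -3.95 ± 0.94 log2 units (limma adjusted p 0.744). The slope of GAZW02020440 was -1.28 log2 units over 26 days in pollinated and 2.67 in unpollinated megagametophytes.

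Some of the 85 identifiers lie close together in the numbering of the assembly. There were 6 pairs of members with numbers at most 3 apart. GAZW02067080 and GAZW02067081 ran together, at 14.3 to 103 and 24.3 to 110 FPKM, with r = 0.985 over the 8 libraries. The other 5 pairs had r of 0.678 to 0.941. The relation between contigs with neighbouring numbers is not stated in the sources used here. Where they come from a common gene they could share reads, and their values would not be independent.

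For 12 of 85 contigs (14.1%) a contig with the next lower or next higher number stood at 10 FPKM or more in both cone tissues, beside 24.4% of the others with the same floor. One such neighbour was GAZW02020439, next to GAZW02020440, whose megagametophyte levels were 308 to 808 FPKM, beside 595 in scales and 522 in bracts. On its other side GAZW02020441 ranged from 35.5 to 45.5 FPKM over the megagametophyte libraries, beside 37.1 in scales and 32.6 in bracts. GAZW02026931, next to GAZW02026932, ranged from 151 to 281 FPKM over the megagametophyte libraries, beside 259 in scales and 268 in bracts. These neighbours were singled out after their values were seen.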

How the data were processed

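RNA of 8 megagametophyte pools, cone scales and cone bracts had been sequenced as non-stranded paired reads of 100 bases, per the labels' protocols. Tools listed in the submitters' processing notes, with no role for each, are RSEM 1.2.12, Bowtie 1.0.1, R 3.1.0, bedtools 2.17, Trim Galore 0.2 and FastQC 0.10. The authors deposited one table on a log scale, here taken to be log2(FPKM + 1). No source used here gives its base or offset, and FPKM levels and folds rest on that reading. Values ran from 0.01 to 12.28.

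Each library formed its own group. Models were fitted to the 27065 contigs averaging at least 1 FPKM across the 8 megagametophyte libraries, with limma 3.58.1 in R 4.3.3 (intensity trend, pseudocount 1 FPKM), and called at a Benjamini-Hochberg adjusted p under 0.05 over all of them. All 85 members passed the filter by construction. Residual degrees of freedom were 5 for the line over dates, 3 for date as a factor and for pollination, and 2 for their interaction. The models were tested on simulated data, where the interaction model called none of the changes put in and the other models called part of them. Plots were drawn with matplotlib 3.10.9, and summaries made with pandas 2.3.3 under Python 3.11.15.

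The members, tests and naming rules were chosen with earlier results of these data known. Contigs are named for the highest mean, the extremes of range, fitted change, middle-date level and pollination difference, and their nearness to the limits. p-values rest on departures from a line over dates or on variation of the pollination difference between dates, not on replicate libraries. Alternatives covered the pseudocount, filter, scaling, eBayes settings, form of the date term, selection limits and omitted libraries.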

Additional observations from a re-analysis of the deposited data

How the results depend on the processing

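Selection depended on its limits: 189 contigs at a floor of 5 FPKM, 29 at 20 FPKM, 33 with cone levels under 0.5 FPKM and 158 under 2 FPKM, beside 85. The count of 36 contigs passing the line over dates became 10 without both libraries of 10 June, 20 without both of 6 July, 3 on date means, 0 in pollinated and 4 in unpollinated libraries alone, and 14 to 35 without 1 library. The 53 of the factor test became 24 without a filter, 35 without the intensity trend and 24 to 42 without 1 library. The 22 calls between 10 and 22 June became 13 with a pseudocount of 0.1 FPKM, 8 without a filter, 12 without the intensity trend and 0 to 13 without 1 library. The 9 between 22 and 30 June became 2 without a filter and 1 to 8 without 1 library. The 0 between 30 June and 6 July became 2 with a pseudocount of 5 FPKM or a filter at 5 FPKM. Fewer samples enter the fits with libraries left out or averaged, and more contigs are tested without a filter. Fits with another pseudocount or without the intensity trend kept the same libraries and filter. Causes of these changes were not tested. Quantile normalization gave 1 contig in place of 0 for 2-fold higher without pollen on 22 June. Both pollination tests gave 0 under all alternatives run. Because the interaction model also called none of the changes put into simulated data, its 0 in each setting shows no stability. With late dates set against early ones, the limma adjusted p of GAZW02020440 in the interaction test was 0.130, beside 0.744 with the line. Library medians differed by up to 0.14 log2 units, and a common median gave 19 rises and 15 falls over the dates. The labels give no replicate numbers, and both pollination tests paired the libraries by date; without that pairing the interaction also gave 0. Depth is unknown, so no error can be given for levels near the bottom of the table.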
